A study of Mus musculus with 4 samples.

Results

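Cpa3 encodes carboxypeptidase A3, a zinc-dependent protease that removes the last amino acid of peptides and that is stored in the secretory granules of mast cells. The gene was picked by its symbol from the 31053 genes measured, as 1 gene that stood near absent at 30 °C and was counted many times at 4 °C, so that its own difference between the temperatures is given as a description with no test. Its UMIs (unique molecular identifiers, each standing for 1 captured RNA molecule) were read in 4 single-cell libraries of ChAT-eGFP+ cells. These cells were sorted from the stromal vascular fraction of inguinal subcutaneous white adipose tissue (IWAT). All mice were male and carried the ChATBAC-eGFP transgene, in which green fluorescent protein marks cells that use the gene of the acetylcholine-making enzyme, and entered housing at thermoneutrality (30 °C) at 5 weeks of age for 3 weeks. The control group then stayed at 30 °C for a further 4 h and the cold group was moved to 4 °C for 4 h, after a period at room temperature that, per the study's methods, the controls did not have. Each temperature had 2 libraries, each from 4 pooled mice, so that n = 2 libraries per group throughout. The sort chose live single cells by the transgene's fluorescence and not by cell type, and cell types were named afterwards from marker genes.

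Mast cells are resident immune cells of connective tissue. They develop under signals of the receptor Kit and the transcription factor Gata2, and carry the high-affinity IgE receptor, whose chains are encoded by Fcer1a and Ms4a2. Their granules hold chymases such as Mcpt4 and Cma1, tryptases such as Tpsb2, histamine, which is made by Hdc, and carboxypeptidase A3, all bound to heparin on the proteoglycan serglycin (Srgn). Carboxypeptidase A3 trims peptides such as endothelin-1 and neurotensin. Cpa3 transcripts are also known from basophils and from early blood-forming progenitors, so a Cpa3 UMI alone does not name a cell.

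In the GENCODE M21 annotation of GRCm38, Cpa3 (ENSMUSG00000001865) lies at chr3:20215620-20242181 on the minus strand. Its longer transcript has 11 exons and 1449 exonic bases, and a microRNA gene, Mir7007, lies inside the gene on the same strand. The related carboxypeptidase gene Cpb1 begins upstream of it at chr3:20248264-20275733 and had 0 UMIs in the cells kept. The 250 bases before the start of Cpa3 are shown with those of Mcpt4 and Cma1, the chymase genes whose UMIs lay in the same cells. Capitals mark the motif bound by GATA factors (the letters AGATAA, with TGATAA and also AGATAG and also TGATAG counted, on either strand, with 1 match and so no overlap in each window). The sequences are from RefSeq on GRCm38.p6 and run 5′ to 3′ along each gene, at chr3:20242182-20242431, chr14:56062311-56062560 and chr14:55944676-55944925, all on the minus strand.
Cpa3: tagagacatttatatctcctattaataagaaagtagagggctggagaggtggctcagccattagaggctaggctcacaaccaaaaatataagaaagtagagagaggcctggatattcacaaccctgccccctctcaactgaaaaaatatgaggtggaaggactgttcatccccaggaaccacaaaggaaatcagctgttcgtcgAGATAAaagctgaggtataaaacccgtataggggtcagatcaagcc
Mcpt4: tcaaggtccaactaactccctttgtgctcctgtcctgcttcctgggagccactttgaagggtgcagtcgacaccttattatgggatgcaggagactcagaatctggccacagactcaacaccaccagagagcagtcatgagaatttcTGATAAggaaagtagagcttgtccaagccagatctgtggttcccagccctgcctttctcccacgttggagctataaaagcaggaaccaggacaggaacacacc
Cma1: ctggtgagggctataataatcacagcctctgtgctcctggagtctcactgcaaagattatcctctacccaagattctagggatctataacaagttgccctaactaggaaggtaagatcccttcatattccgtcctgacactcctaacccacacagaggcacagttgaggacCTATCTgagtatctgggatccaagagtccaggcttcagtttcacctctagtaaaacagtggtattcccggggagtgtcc
The match ended 40 bases before the start of Cpa3, 97 bases before Mcpt4 and 73 bases before Cma1, where it lay on the opposite strand. Of all 32851 windows of 250 bases, 26.5% held at least 1 match, so that a match is common, and it is given here as a description of the letters.

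Cell numbers per library were 6883 and 6881 at 30 °C, against 6272 and 6618 at 4 °C, with 76058112 to 84468931 UMIs each. After the filters on cells, 5191 to 5388 cells per library were kept, with a median of 7520 to 8068 UMIs per cell, and 21253 of 26654 cells in all. A set of 81 cell barcodes was found in 2 or more libraries, and 0 of them carried a Cpa3 UMI.

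Over the cells kept, Cpa3 had 2 and 4 UMIs in the libraries at 30 °C, against 129 and 139 in those of the cold group. Both libraries at 4 °C lay far above both at 30 °C, and the libraries of a temperature lay close together. Per 1000000 UMIs of the same cells (CPM), these were levels of 0.0374 and 0.0744 against 2.35 and 2.55. The mean was thus 0.0559 ± 0.0261 CPM (SD, n = 2) at 30 °C against 2.45 ± 0.143 CPM (SD, n = 2) at 4 °C, which is a difference of 5.45 on the log2 scale. With all deposited cells, 9 and 4 UMIs stood against 138 and 145.

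The UMIs did not spread over many cells. Of all 26654 cells, 31 carried Cpa3, with 9 and 4 carrying cells in the libraries at 30 °C, against 10 and 8 at 4 °C. Cells carrying Cpa3 made up 0.131% (95% Clopper-Pearson interval 0.0598 to 0.248) and 0.0581% (0.0158 to 0.149) of the libraries at 30 °C, against 0.159% (0.0765 to 0.293) and 0.121% (0.0522 to 0.238) at 4 °C, and all 4 intervals overlapped. Intervals here cover counting error only. Of the 31 cells, 26 carried 1 UMI and 3 carried 2 UMIs. The remaining 2 cells carried 128 UMIs (in 4 °C replicate 1) and 136 UMIs (in 4 °C replicate 2), and no cell at 30 °C had more than 1 UMI. These 2 cells, called Cpa3-rich here, held 264 of the 274 Cpa3 UMIs of the cells kept, or 96.4%, and 89.2% of those of all deposited cells.

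**Figure D1:**
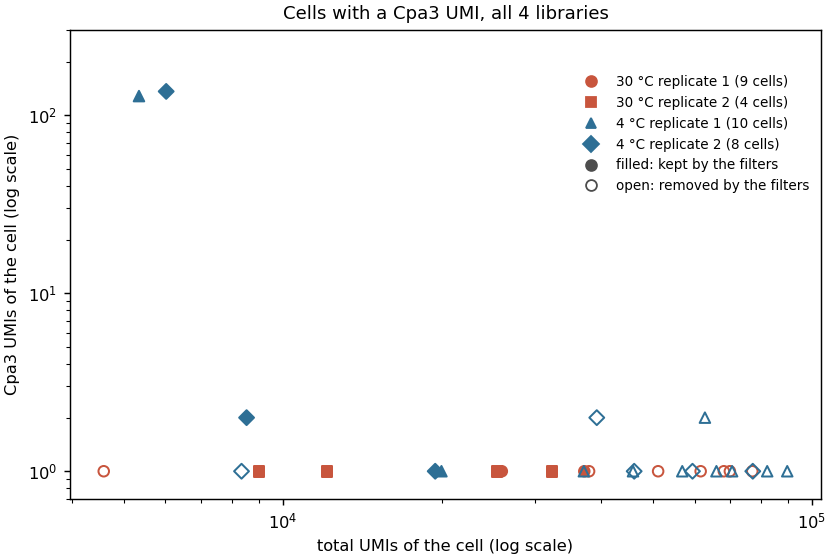
Cpa3 UMIs against total UMIs for the 31 cells with a Cpa3 UMI, both axes on a log scale, with a symbol for each library, filled for cells kept by the filters and open for cells removed. The 2 Cpa3-rich cells at 4 °C stand at 128 and 136 UMIs, and the other 29 cells at 1 or 2.

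Without the 2 Cpa3-rich cells, a setting chosen after seeing the data, the libraries of the temperatures overlapped. The cells kept then held 2 and 4 UMIs at 30 °C, against 1 and 3 at 4 °C, or 0.0374 and 0.0744 CPM against 0.0182 and 0.0551 CPM. The ratio of 4 °C over 30 °C was 0.653 with a counting interval of 0.136 to 2.75. Over all deposited cells without these 2, 13 UMIs at 30 °C stood against 19 at 4 °C, a ratio of 1.42 with an interval of 0.664 to 3.12. Each library at 4 °C thus held its Cpa3 UMIs mainly in 1 cell. With the cells removed that Scrublet, which scores how far a cell looks like a mixture of others, marks as doublets, which takes out 1 of the 2 cells, the libraries at 4 °C stood apart, at 1 UMI (0.0190 CPM) in replicate 1 and 139 UMIs (2.63 CPM) in replicate 2, and overlapped those at 30 °C (0.0389 and 0.0771 CPM).

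**Figure D2:**
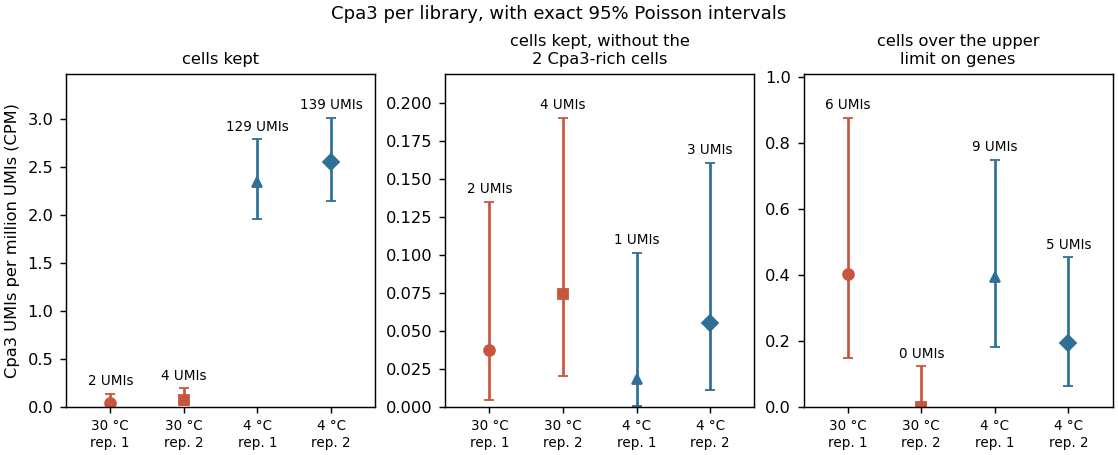
Cpa3 level in CPM for each of the 4 libraries, in the cells kept, in the cells kept without the 2 Cpa3-rich cells, and in the cells over the upper limit on genes. Points are library values, bars are exact 95% Poisson intervals, and each panel has its own axis from 0, so that the 129 and 139 UMIs of the left panel stand beside the 1 and 3 of the middle panel.

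The 2 Cpa3-rich cells carried the genes of mast cells. Of the 10 mast cell markers other than Cpa3, they held UMIs of 8 and 9, with 781 and 620 UMIs in all. The cell of 4 °C replicate 1 had 5347 UMIs and 2222 genes, and that of replicate 2 had 6019 UMIs and 2475 genes, so neither was a deep cell among the cells kept. Cpa3 alone made up 2.39% (95% Clopper-Pearson interval 2.00 to 2.84) of the UMIs of the first cell and 2.26% (1.90 to 2.67) of those of the second, and held rank 4 and rank 3 among all their genes. The intervals of the Cpa3 share overlapped between the cells. The granule proteases Cpa3, Mcpt4, Cma1 and Tpsb2 together made up 15.9% and 10.9% of the UMIs.

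Among the granule proteases, the chymase Mcpt4 had 350 UMIs in the first cell and 314 in the second, and the chymase Cma1 had 227 and 139. The tryptase Tpsb2 had 147 and 70 UMIs. For Mcpt4, Cma1 and Tpsb2, unlike Cpa3, the intervals of the level did not overlap between the cells, at 655 (588 to 727) against 522 (466 to 583) UMIs per 10000 for Mcpt4, 425 (371 to 484) against 231 (194 to 273) for Cma1 and 275 (232 to 323) against 116 (90.7 to 147) for Tpsb2. Another tryptase, Tpsab1, had 0 UMIs in every cell kept, as had the mucosal mast cell proteases Mcpt1 and Mcpt2. The tryptase Tpsg1 had 4 and 13 UMIs, and cathepsin G (Ctsg) had 0 and 6.

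Among the receptors and regulators, Kit had 9 and 29 UMIs and Gata2 had 10 and 12. Per 10000 UMIs, Kit stood at 16.8 (7.70 to 32.0) against 48.2 (32.3 to 69.2), higher in the second cell, where the proteases Cma1 and Tpsb2 were lower. The IgE receptor chain Ms4a2 had 3 and 6 UMIs, and the ligand-binding chain Fcer1a had 0 and 10. The receptors Mrgprb1 and Mrgprb2, of a family through which mast cells answer to basic peptides, had 22 and 36 UMIs and 5 and 6 UMIs. Of the genes of histamine, the enzyme Hdc had 13 and 4 UMIs and the vesicle transporter Slc18a2 had 5 and 7. Il4, which encodes a type 2 cytokine, had 7 and 1 UMIs, and Il1rl1, which encodes the receptor of interleukin-33 on mast cells and on group 2 innate lymphoid cells, had 1 and 10.

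**Figure D3:**
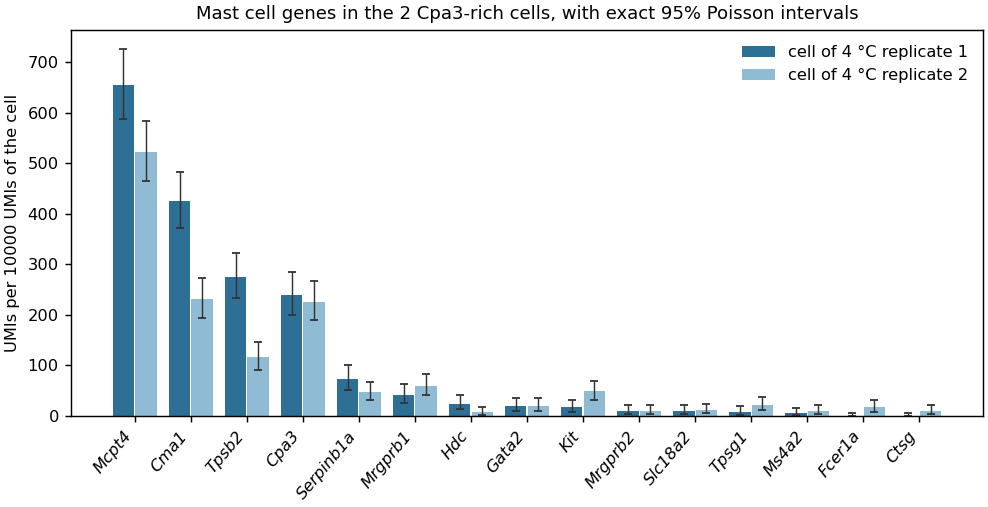
UMIs of 15 mast cell genes per 10000 UMIs of the cell, in the 2 Cpa3-rich cells of 4 °C replicates 1 and 2, as bars from 0 with exact 95% Poisson intervals. Cpa3 stands at 239 and 226 per 10000, and Mcpt4, at 655 and 522, is the highest bar in both cells.

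Markers of macrophages and lymphoid cells were few in these cells. The 8 macrophage markers gave 1 and 0 UMIs, the 9 αβT cell markers and the 5 γδT cell markers gave 0 in both cells, and the 7 B cell markers gave 1 and 3. Of the 9 markers of innate lymphoid cells (ILCs), Gata3, Rora and Il7r had 0 UMIs in both, and the 2 and 10 UMIs found came from Il1rl1 and Hs3st1. The 6 basophil markers gave 16 and 32 UMIs. Of these genes Gata2, Ms4a2 and Fcer1a are also mast cell markers, Cd200r3 had 3 and 4 UMIs, and the basophil proteases Mcpt8 and Prss34 had 0. The gene Chat itself had 0 UMIs in both cells although they came from a sort on ChAT-eGFP, which at their depth allows up to 561 and 498 CPM. Clustering nevertheless placed both cells in the macrophage-like cluster, whose other cells had a median of 156 to 213 macrophage marker UMIs and 0 mast cell marker UMIs per cell in each library. The label of the cluster therefore did not hold for them, and they are described by their own genes as mast cell-like. The cell of 4 °C replicate 1 was marked as a doublet by Scrublet, with a score of 0.356, and that of replicate 2 was not, with a score of 0.168. The UMI totals of both cells lay below the medians of 8068 and 7985 of the cells kept at 4 °C.

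Mast cell-like cells were too few to compare between temperatures. At least 8 of the 10 markers were found in 1 of 6272 cells and 1 of 6618 cells at 4 °C, or 0.0159% (95% Clopper-Pearson interval 0.000404 to 0.0888) and 0.0151% (0.000383 to 0.0842). None of the 6883 and 6881 cells at 30 °C had as many, which allows a share of up to 0.0436% in each library. The shares at 4 °C lay within that limit, so a difference in the number of these cells was not detectable at this number of cells. The cut of 8 equals the lower count of the 2 Cpa3-rich cells, so the cells counted are those 2 again. With 3 or more markers, the libraries had 1 and 0 cells at 30 °C, against 1 and 2 at 4 °C. In 30 °C replicate 1, 1 cell of the proliferating cluster had UMIs of 4 of the markers (2 of Kit, 2 of Tpsb2, 1 of Mcpt4 and 1 of Hdc) and 0 of Cpa3.

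One further cell stood between. A cell of 4 °C replicate 2 in the ILC-like cluster, with 8540 UMIs, had 2 Cpa3 UMIs, 11 of Cma1, 9 of Mcpt4, 3 of Tpsb2, 1 of Mrgprb1 and 2 of Kit. It also had 25 UMIs of Il7r, 3 of Rora and 16 of αβT cell markers, and its Scrublet score was low, at 0.0099. It held 2 of the 3 Cpa3 UMIs that the cells kept of 4 °C replicate 2 had outside the Cpa3-rich cell, and 11 of their 12 Cma1 UMIs. Free RNA from burst cells can also give single UMIs in cells that do not express a gene. The part of such RNA in the Cpa3 UMIs was not tested. In the B cell-like cluster, 0 of 8274 cells had a Cpa3 UMI at a median of 7756 UMIs, which allows a share of up to 0.0363%. The same B cell-like cells had 1 UMI of Mcpt4 (in 30 °C replicate 1), 1 of Tpsb2 (in 4 °C replicate 2) and 0 of Cma1, and they held 214 of the 386 UMIs of Hdc and 8 of the 21 of Ms4a2. The αβT cell-like cluster had a Cpa3 UMI in 0 of 5769 cells, at a median of 5746 UMIs.

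Other mast cell genes were held by the same 2 cells to very different degrees. Of the 32 genes of the lists of mast cell and basophil genes, 28 had a UMI in the cells kept. The Cpa3-rich cells held 97.9% of the UMIs of Mcpt4, 96.7% of Mrgprb1, 96.1% of Cma1, 95.2% of Tpsb2, 94.4% of Tpsg1 and 91.7% of Mrgprb2, beside 96.4% of Cpa3. Of the receptor and regulator genes by which mast cells are often sought, Fcer1a had all of its 10 UMIs in 1 of the 2 cells, whereas 3 others were shared with other cells. Kit had 5.07% of its 750 UMIs in the 2 cells, with 208 UMIs in the ILC-like cluster. Gata2 had 14.6% of 151, with 94 in lymphatic endothelial-like cells, and Ms4a2 had 42.9% of 21. Srgn, the granule proteoglycan that other immune cells also make, had 0.0277% of 209159 UMIs there.

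**Figure D4:**
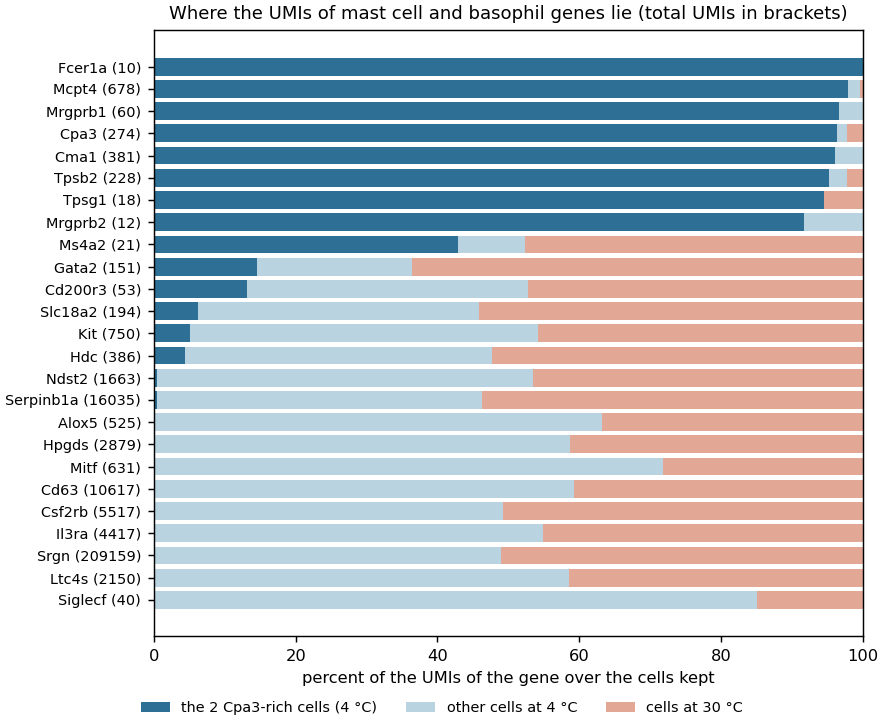
Percent of the UMIs of each gene, over the cells kept, that lay in the 2 Cpa3-rich cells, in other cells at 4 °C and in cells at 30 °C, for Cpa3 and the 24 listed mast cell and basophil genes with at least 10 UMIs (total UMIs in brackets). Cpa3, at 96.4% of 274 UMIs, lies among the proteases and Mrgprb receptors, whereas Kit, Gata2 and Hdc lie mostly in other cells.

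The 10 genes whose level followed that of Cpa3 most closely were found by the Pearson correlation of log2(CPM + 1) over 50 sums of a cluster in a library, among 13437 genes. Mcpt4 (r = 0.98), Tpsb2 (r = 0.98) and Cma1 (r = 0.97) came first, and had 95.2% to 97.9% of their UMIs in the Cpa3-rich cells. The next 7, from Mmp13 (r = 0.97) and Ccl12 (r = 0.86) to Fpr2 (r = 0.81), had 0 UMIs in these cells. The macrophage-like cluster, in which both cells were placed, held 97.4% of the Cpa3 UMIs of the cells kept. The points share libraries and clusters, so that the values are a description.

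The 2 cells also entered the comparison of temperatures across genes. UMIs of the macrophage-like cluster were summed per library and compared with edgeR (quasi-likelihood test, Benjamini-Hochberg adjustment). At 4 °C, 760 of 9902 genes were higher, a background of 7.68%, and 736 were lower, or 7.43%. Cpa3 was among the genes called, with sums of 0 and 2 UMIs at 30 °C against 129 and 136 at 4 °C, and its call follows from the choice of the gene. Mcpt4, Cma1, Tpsb2 and Mrgprb1 had 1, 0, 3 and 0 UMIs at 30 °C in this cluster, and 664, 367, 218 and 59 at 4 °C. Like Cpa3, they had enough UMIs to be tested only through the 2 Cpa3-rich cells, so their calls say nothing beyond those cells and are given no p.

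Without the 2 cells, the macrophage-like cluster gave 759 higher genes of 9892 (7.67%), of which 747 were shared, and 13 were lost. Of these 13, 5 no longer had the UMIs to be tested: Cpa3, Cma1, Tpsb2 and Mrgprb1, each with 1 UMI left at 4 °C, and Mcpt4, with 0. Of the 12 genes of mast cell and basophil surface and regulators, 4 could then be tested and 1 rose (Mitf). Of the 20 genes of granules and mediators, 7 could be tested, 1 rose (the prostaglandin D2 synthase Hpgds) and 1 fell (Srgn). Serpinb1a, an inhibitor of granule proteases, went from a log2 fold change of 1.41 ± 0.28 (SE, edgeR adjusted p = 0.00916) to 0.43 ± 0.32 (adjusted p = 0.428), and it stood at 0.87 and did not pass with Scrublet doublets removed. The other 7 crossed the threshold of 0.05 by little, with adjusted p of 0.0455 to 0.0495 before and 0.0501 to 0.0547 after. By contrast, Hpgds rose by 1.24 ± 0.15 with the 2 cells (adjusted p = 0.000642) and by 1.23 ± 0.15 without (adjusted p = 0.000684), and Mitf, a transcription factor of macrophages and mast cells, by 1.19 ± 0.23 (adjusted p = 0.00895) and 1.18 ± 0.23 (adjusted p = 0.0085). Srgn fell by 0.65 ± 0.09 with the cells (adjusted p = 0.00147). The median log2 fold changes without the 2 cells were 0.17 for surface and regulators and 0.06 for granules and mediators, beside 0.00 over all genes tested with them.

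Over all cells kept, 66 of 15076 genes passed by edgeR (0.438%), 22 of them higher at 4 °C (0.146%) and 44 lower (0.292%). Without the 2 cells 59 passed (0.392%) and 16 were higher (0.106%), all 16 among the 22. Of the 6 lost, 3 were Cpa3, Mcpt4 and Cma1, which then had 4, 11 and 15 UMIs at 4 °C against 268, 675 and 381 before. The other 3 (Ddx17, Ptgs2 and Rrad) moved from adjusted p of 0.0477 to 0.0493 to values of 0.0504 to 0.0516. Cma1 and Mcpt4 had 0 and 3 UMIs at 30 °C and were tested only through the 2 cells, so no p is given for them. Without the 2 cells, 8 genes of surface and regulators and 8 of granules and mediators could be tested, and 0 of each passed by edgeR. In each list 3 had an unadjusted edgeR p under 0.05, beside 3110 of all 15069 genes tested. The difference in shares was not tested, and these counts are no result about the lists. Fits with a library left out leave 1 library in an arm, so they do not show on which libraries the 66 calls rest.

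Of 17 other metallocarboxypeptidase genes, 16 were in the files and 6 of them (the digestive enzymes Cpa1 and Cpb1 with Cpa4, Cpa5, Cpa6 and Cpb2) had 0 UMIs in the cells kept. Cpd, Cpe and Cpm, which trim prohormones and surface peptides, had 6488, 1736 and 2595 UMIs and 0 in the Cpa3-rich cells. In all cells 0 of the 8 tested passed by edgeR, 1 had an unadjusted p under 0.05 and DESeq2 called 1. Over all 15076 genes these counts were 66 (0.438%), 3115 and 839, so that so few of 8 is near the background and is no result about the family. Of 9 genes listed for peptides as possible targets of the enzyme, 0 had a UMI in the Cpa3-rich cells, and whether it cuts each of them was not tested. The precursor of neurotensin, Nts, had 793 of its 814 UMIs in lymphatic endothelial-like cells (525 and 16 UMIs at 30 °C against 16 and 257 at 4 °C over all cells), and that of endothelin-1, Edn1, had 303 of 432 in stromal-like cells. Of the 6 tested over all cells, 0 passed by edgeR, 2 had an unadjusted p under 0.05 and DESeq2 called 1, which is read against the same background. The group 2 innate lymphoid list had 0 of 19 tested genes called by edgeR over all cells, a count that is near the edgeR background of 0.438%. Of these 19, 12 had an unadjusted p under 0.05 and DESeq2 called 7. These are larger shares than the 3115 and 839 of all 15076 genes, and the difference in shares was not tested. The list of type 2 cytokines had 2 higher (Il13 and Areg) and 1 lower (Ccl17) of 13, with and without the 2 cells.

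The other carriers lacked the mast cell proteases. Leaving out the Cpa3-rich cells and the cell between, 28 cells carried 1 or 2 Cpa3 UMIs, 13 at 30 °C and 15 at 4 °C. They were deep, with a median of 46005.5 UMIs and a range of 4587 to 89776. The upper limit of 5000 genes per cell had removed 18 of them and the limit of 7.5% mitochondrial UMIs another 2, so that 8 were kept, 4 in the proliferating cluster, 3 in the macrophage-like cluster and 1 in the plasma cell-like cluster. The study's methods drew these limits against low quality, dying or doublet cells. Scrublet was run on the cells kept only, so the removed carriers had no doublet score and may include mixtures of cells. The 3 carriers of the macrophage-like cluster had 90, 308 and 438 macrophage marker UMIs. When cells were clustered without the upper limit, 22 of the 28 fell in the proliferating cluster. None of the 28 had a UMI of Mcpt4, Cma1, Tpsb2 or Gata2.

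A deeper cell gives more UMIs of every gene, so rates per UMI were compared. The 1488 cells over the limit on genes had 20 Cpa3 UMIs, or 0.228 CPM (exact 95% Poisson interval 0.139 to 0.352), against 0.0462 CPM (0.0221 to 0.0849) in the cells kept without the Cpa3-rich cells. The intervals did not overlap, but they pool UMIs over the libraries and cover counting error only. In 30 °C replicate 1 the deep cells stood at 0.403 CPM against 0.0374 in the cells kept without the Cpa3-rich cells. The same values were 0.395 against 0.0182 in 4 °C replicate 1 and 0.194 against 0.0551 in 4 °C replicate 2. In 30 °C replicate 2 the order was the other way, at 0 CPM (up to 0.123) against 0.0744. By library, the deep cells had 6 and 0 UMIs at 30 °C, against 9 and 5 at 4 °C. One library at 30 °C, at 0.403 CPM (0.148 to 0.876), was as high as 4 °C replicate 1, at 0.395 CPM (0.180 to 0.749), and the other, at 0 UMIs in 405 cells, allowed up to 0.123 CPM. The temperatures therefore overlapped, with the highest and the lowest library both at 30 °C.

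The 18 deep carriers, set beside the 1470 deep cells with no Cpa3 UMI, had UMIs of Kit, Gata3, Il7r and Rora in larger shares of cells and of Cd3e in a smaller one. Kit was found in 10 of 18, or 55.6% (30.8 to 78.5), against 9.80% (8.32 to 11.4). Gata3, the factor of type 2 lymphoid cells, was found in 18 of 18 against 62.1%, and Il7r, the receptor of interleukin-7, in 88.9% against 49.5%. Rora stood at 94.4% against 57.4%. The ILC marker Il1rl1 did not follow, at 11.1% (1.38 to 34.7) against 10.7% (9.21 to 12.4). In contrast Cd3e, a chain of the T cell receptor complex, was found in 16.7% (3.58 to 41.4) against 62.2% (59.7 to 64.7). Trac, the constant chain of the αβT cell receptor, differed less, at 61.1% against 70.0%. Each of the 18 carriers had a UMI of Trac or of a CD3 chain gene (Cd3d, Cd3e or Cd3g), as had 1235 of the 1470 others. Over the full marker lists, the deep carriers held 13 to 192 UMIs of αβT cell markers and 12 to 94 of ILC markers. These sums were not taken for the deep cells with no Cpa3 UMI. The ILC markers Il13, Il17rb, Il5, Areg and Hs3st1 were not compared, so the shares name no cell type. The B cell marker Cd79a was found in 38.9% of the carriers against 57.3%, and Chat in 88.9% against 79.7%. Top2a, a gene of dividing cells, was in nearly all cells of both kinds, at 100% and 94.3%. The carriers were somewhat deeper, with a median of 62171.5 UMIs against 52944. Reduced to 37054 UMIs per cell, which left out 0 carriers and 254 other cells, the shares were 9 of 18 against 6.91% for Kit, 83.3% against 41.0% for Il7r and 16.7% against 61.6% for Cd3e. Il1rl1 then stood at 0% against 6.99%. Cells of 1 library are not replicates, and these shares were compared without a test.

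**Figure D5:**
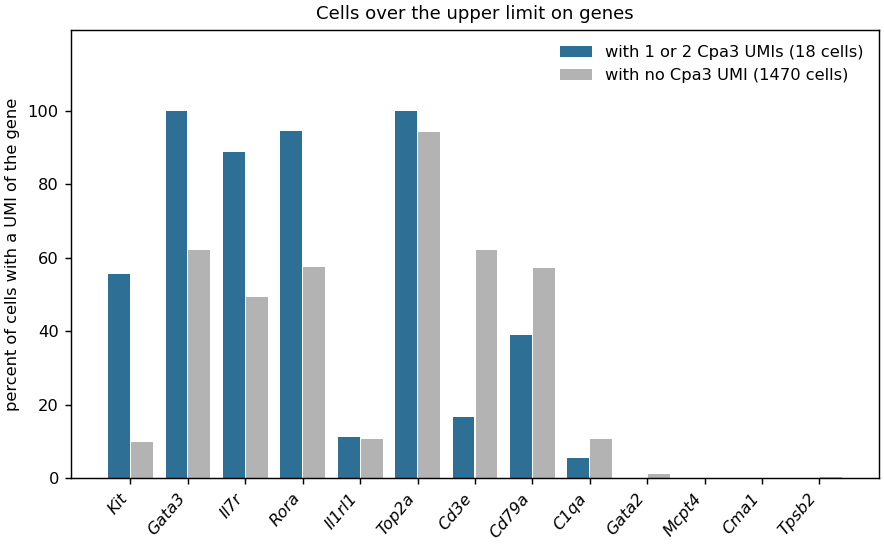
Percent of cells with a UMI of each gene among the cells over the upper limit on genes, for the 18 cells with 1 or 2 Cpa3 UMIs and the 1470 cells with none. Kit, Gata3, Il7r and Rora stand higher and Cd3e lower in the carriers, and Il1rl1 stands alike in both. The mast cell genes Gata2, Mcpt4, Cma1 and Tpsb2 stand at 0 in the carriers.

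The same deep cells can be set out by Kit and Cd3e, genes chosen because the carriers differed in them, which gives the levels behind the shares above and no further support for them. Deep cells with a Kit UMI and no Cd3e UMI had 10 Cpa3 UMIs in 110 cells, or 1.45 CPM (0.695 to 2.66). Deep cells with a Cd3e UMI had 3 in 918 cells, or 0.0538 CPM (0.0111 to 0.157), and those with neither had 7 in 460 cells, or 0.277 CPM (0.111 to 0.571). In the cells with Kit and no Cd3e, the libraries had 4 and 0 Cpa3 UMIs at 30 °C (in 18 and 14 cells), against 4 and 2 at 4 °C (in 42 and 36 cells). As levels these were 3.41 and 0 CPM against 1.51 and 0.917 CPM, so that 30 °C held the highest and the lowest library. A rule of at least 3 ILC markers and no UMI of Cd3e, Cd79a or C1qa also uses genes in which the carriers differed, and adds no support. Deep cells that met it had 8 Cpa3 UMIs in 93 cells, or 1.47 CPM (0.633 to 2.89). Deep cells that did not had 12 in 1395 cells, or 0.146 CPM (0.0752 to 0.254), and held 10 of the 18 deep carriers. Kept cells that met the rule had 5 Cpa3 UMIs in 1307 cells, or 0.408 CPM (0.133 to 0.952). Of those 5, 3 were at 30 °C and 2 at 4 °C, the 2 being in the cell between described above.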

How the data were processed

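The authors aligned the reads to mm10 with Cell Ranger and deposited raw UMI counts for each gene in each cell. The file headers give version 3.0.0 and the submitters' processing notes 3.1.0. Cells with over 200 and under 5000 genes and under 7.5% mitochondrial UMIs were kept per library, among genes found in at least 10 cells, and clustered in Seurat 5.3.0 (2000 variable genes, 25 components, resolution 0.1). Clusters were named from marker lists, and Scrublet, run through scanpy 1.11.5, gave doublet scores and marked 2.37% of the cells kept. CPM are UMIs per 1000000 UMIs of the cells named. Sums per library were tested with edgeR 4.0.16 (TMM, filter on low counts, quasi-likelihood, threshold 0.05), with DESeq2 1.42.0 as an alternative. With 2 libraries per temperature, p-values set the difference between temperatures against the spread between libraries. Each library pools 4 mice, so the spread between single mice was not measured. A count of 0 allows up to 3 counts. Genes named are members of the lists, the 10 genes most like Cpa3 and, chosen after their values were seen, genes whose calls were lost. Cpa3, the lists and the alternatives were chosen with earlier results of these data known. The planned comparison of cells with and without Cpa3 within a cluster needed 20 carrying cells per library and could not be fitted.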

Additional observations from a re-analysis of the deposited data

Results flagged for a closer look

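The cells that the filters removed, which enter none of the fits across genes, held 22 Cpa3 UMIs in 20 cells of 5401, and were looked at because a signal in data left out of the main measurement was above the limit that a count of 0 allows. Of these UMIs, 7 and 0 were in the libraries at 30 °C, and 9 and 6 in those at 4 °C. The level was 0.201 CPM (exact 95% Poisson interval 0.126 to 0.305), against 0.0462 CPM in the cells kept without the Cpa3-rich cells. The cells are the deep carriers described above and 2 cells over the mitochondrial limit. The part of cell depth, of division and of doublets in this level was not tested.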

How the results depend on the processing

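The Cpa3 difference between temperatures, 5.45 on the log2 scale over the cells kept, was 4.37 with all deposited cells, 4.41 without the upper limit on genes and 4.51 without Scrublet doublets, and ran from 5.04 to 6.03 when each library was left out. Without the 2 Cpa3-rich cells, a setting added after seeing the data, it was -0.61 in the cells kept and 0.47 over all deposited cells. In the macrophage-like cluster it was 6.72, at least 5.19 with cells thinned to 3278 UMIs (0 UMIs at 30 °C, floor of 3 counts over the group), 5.05 (a lower bound) to 7.22 when each library was left out, -0.49 in the cells with 3 ILC markers in place of the cluster and -2.06 without the 2 cells, where it rested on 2 UMIs against 1. The cluster's share of Cpa3 UMIs, 97.4%, was 30.0% (3 of 10 UMIs) without them. DESeq2 called 787 genes in the macrophage-like cluster, where edgeR called 1496, and 839 over all cells, where edgeR called 66. Leaving out each library gave 1310 to 1593 and 0 to 489 calls. The 0 came from leaving out either library at 30 °C (1695 and 1653 genes at an unadjusted p under 0.05), and 225 and 489 from leaving out 4 °C replicate 1 and replicate 2. Causes of these shifts were not tested. With the replicate number as a block, the calls were 1753 and 8. Whether same-numbered libraries shared more than a number is not stated. Their deviations had a correlation of 0.0656 and 0.0814 over genes, which rests on 1 difference per temperature and cannot decide it. With 1 library left in an arm, that library is assumed to vary like the other arm. Depth limits the carriers with 1 or 2 UMIs, whose counts cannot separate the temperatures.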
